A study of Mus musculus with 12 samples.

Results

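The ATF4 stress response was followed in mouse liver through 10 genes, taken from the gene table by symbol: Atf4, Ddit3, Trib3, Asns, Chac1, Sesn2, Atf3, Ppp1r15a and the secreted hepatokines Fgf21 and Gdf15. The table holds 24411 genes, of which 13922 had enough reads to be tested, and all 10 were among them. mRNA-seq had been performed on livers of mice at 3 months of age, and 3 of the genotypes were analysed here, with 3 mice in each. The cont. mice were Atg7 flox/flox without Cre. The Atg7-KO mice were Atg7 flox/flox;Alb-Cre, in which the albumin promoter drives Cre in hepatocytes. The study calls them hepatocyte-specific knockout mice, and Atg7 in the other cells of the liver was not measured separately here. The Atg7-KO;p62T352A mice carried in addition p62T352A on both alleles, a knock-in exchange within the KEAP1-interacting region of p62, made in C57BL/6N embryonic stem cells. All mice carried floxed Atg7. The question put by the study was whether retention of KEAP1 by p62 sets the damage seen when liver autophagy is lost, and the 3 pairwise comparisons of these genotypes address it here for the stress genes. The p62T352A mice with intact Atg7 were not analysed here.

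In the integrated stress response, kinases that sense amino acid shortage, unfolded protein, double-stranded RNA or heme shortage phosphorylate the initiation factor eIF2. General translation then falls while the ATF4 mRNA is translated more, so the Atf4 mRNA level is not a measure of ATF4 protein. ATF4 with bZIP partners switches on genes of amino acid supply and of feedback, and in liver it is known to raise the hormones FGF21, which acts on adipose tissue and brain, and GDF15, which lowers food intake through the hindbrain. Several of these genes answer to other factors too: Sesn2 is also a known target of NRF2 and of p53, Fgf21 of PPARalpha, and Atf3 of immediate signals such as injury.

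Libraries held 9671073 to 23285134 expected counts, and 3 counts corresponded to between 0.123 and 0.33 CPM, which is the read count of a gene scaled to a library of fixed size after TMM normalisation. Only the levels per kilobase given further on may be set against each other between genes. A gene is called higher or lower at an adjusted p under 0.05 together with a fold change over 1.5 in edgeR's quasi-likelihood test.

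The deleted gene was read before the stress genes. Atg7 stood at 46.4, 44.2 and 55.4 CPM in the cont. mice, at 10.1, 9.57 and 12.0 in the Atg7-KO mice and at 29.7, 27.4 and 29.5 in the Atg7-KO;p62T352A mice. Both Cre genotypes lay below cont., but Atg7 mRNA was 2.73-fold higher in Atg7-KO;p62T352A than in Atg7-KO mice (adjusted p = 0.000164), and 1.68-fold lower than in cont. mice (adjusted p = 0.0206; 0.0524 to 0.07, and not called, without any 1 of the Atg7-KO;p62T352A mice). Counts per gene include exons outside the floxed part and any Atg7 of other liver cells. They do not tell how far the deletion went, and from mRNA a difference in deletion cannot be told apart from the p62T352A exchange. On immunoblots of livers of the same age, the study found almost no ATG7 protein or LC3-II in Atg7-KO livers with or without the p62 exchange. It read this as a block of autophagy. Protein was not measured in the data read here. Sqstm1, which encodes p62, averaged 387 CPM over the cont. mice, 914 over the Atg7-KO mice and 545 over the Atg7-KO;p62T352A mice. As for the labelled tissue, albumin stood at 24670 to 91860 CPM, and none of the 7 hepatocyte markers was at 0 in any mouse.

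Mouse 3 of the cont. group stood apart from the other 8 mice and decided several of the values below. The 12 immediate-early genes, which are transcribed within minutes of a stimulus, summed to 3680 CPM in this mouse, against 111.4 and 202 in cont. mice 1 and 2, 296.5 to 335.5 in the Atg7-KO mice and 241.9 to 614.5 in the Atg7-KO;p62T352A mice. Of the 12, 7 were highest in cont. mouse 3, and Egr1, which had the highest mean CPM of the list, reached 1225 CPM there against at most 155.3 elsewhere. Fos, Jun and Fosb were 9.74, 11 and 22.1 times their highest level in any other mouse. Among the 10 stress genes the same mouse held the highest level of Atf3, Gdf15 and Ppp1r15a, at 13.7, 5.37 and 2.2 times the highest of the other 8 mice. The part of tissue handling, injury or another event in this pattern was not tested. Calls among the 10 genes that change without it are given beside the results. A second feature is the mouse number. Xist, transcribed from the inactive X of females, had 7, 28 and 9 counts in mouse 1 of the 3 genotypes, whereas all other mice had 8578 to 18335, so mouse 1 of each genotype differs from its group mates in this marker of sex. The 4 Y-linked genes Ddx3y, Eif2s3y, Kdm5d and Uty summed to 102 to 159 CPM in the mice numbered 1 and to 0.811 to 18.1 in 5 of the mice with high Xist. In cont. mouse 2 they reached 58 CPM (613 counts) beside high Xist, so this library carried both markers, and the source of its Y-linked reads was not tested. Without it, 3 of the 10 stress genes were called in Atg7-KO against cont. mice (36.1% of all genes), 3 in Atg7-KO;p62T352A against Atg7-KO mice (50.4%) and 2 in Atg7-KO;p62T352A against cont. mice (6.01%). These were the genes called with the 9 mice, given further on, and in the last comparison Fgf21 in addition.

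**Figure D1:**
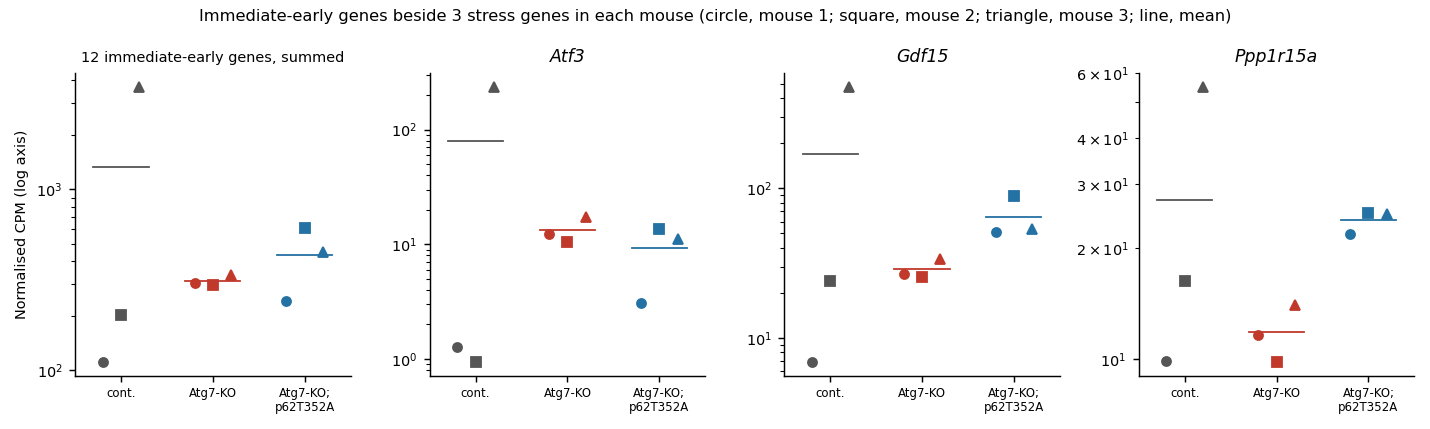
Summed normalised CPM of 12 immediate-early genes and normalised CPM of Atf3, Gdf15 and Ppp1r15a, on log axes, in each of 9 livers grouped by genotype. Points are mice (circle, mouse 1; square, mouse 2; triangle, mouse 3) and lines are group means; the triangle of the cont. group lies above all other mice in every panel, at 3680, 235.4, 475.2 and 55.1 CPM.

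Promoter sequence was examined because ATF4 and its partners are known to bind the C/EBP-ATF response element, searched here as TGATGNAA on both strands. Each of the 10 genes had at least 1 RefSeq window (GRCm38.p6, 250 bases before to 50 after the annotated start), and 5 of the 10 genes held a match, against 3.97% of all 32851 windows; the genes were selected as ATF4 targets, so this share is no finding. The 3 matches that lie upstream of the start and outside annotated exons are shown, each in the orientation of its gene with the match in capitals. All read TTGCATCA, the same element on the opposite strand, at 139 (Fgf21), 193 (Chac1) and 110 (Atf3) bases before the start. The stretches are Fgf21 chr7:45615566-45615685 (minus strand), Chac1 chr2:119350993-119351112 (plus strand) and Atf3 chr1:191183380-191183499 (minus strand).
Fgf21: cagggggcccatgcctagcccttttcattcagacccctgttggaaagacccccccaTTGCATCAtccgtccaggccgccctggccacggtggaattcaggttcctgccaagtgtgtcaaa
Chac1: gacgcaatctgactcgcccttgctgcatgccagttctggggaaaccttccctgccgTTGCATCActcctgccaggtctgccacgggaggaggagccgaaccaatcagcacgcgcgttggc
Atf3: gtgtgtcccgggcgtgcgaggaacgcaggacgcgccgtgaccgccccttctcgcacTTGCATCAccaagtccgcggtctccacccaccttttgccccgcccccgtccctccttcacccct
Asns (23 bases before the RefSeq start) and Trib3 (15 bases after it) held a match close to the start, within a stretch that overlaps an annotated exon, shown for 30 bases at chr6:7693214-7693243 and chr2:152344028-152344057 (both minus strand).
Asns: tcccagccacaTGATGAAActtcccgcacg
Trib3: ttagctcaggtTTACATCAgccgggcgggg
These letters were not in the windows of Atf4, Ddit3, Sesn2, Gdf15 or Ppp1r15a.

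In Atg7-KO against cont. mice, 2 of the 10 were called higher (Sesn2 and Fgf21), 1 was called lower (Atf4) and 7 were not called, while 43.7% of all tested genes were called, 21.6% higher and 22.1% lower. The 10 had a median log2 fold change of -0.80, against -0.03 over all tested genes. This median was 0.04 without cont. mouse 3, against -0.05 over all genes, so its sign rested on that mouse. Values of the groups did not overlap for 3 of the 10 genes, against 55.5% of all tested genes. Atf3 was called higher in addition without cont. mouse 3, which gave 4 of the 10 called, beside 38.0% of all genes. Without cont. mouse 1, 6 of the 10 were called (Sesn2 and Fgf21 higher, Trib3, Gdf15, Atf3 and Ppp1r15a lower, and Atf4 no longer), beside 56.0% of all genes.

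**Figure D2:**
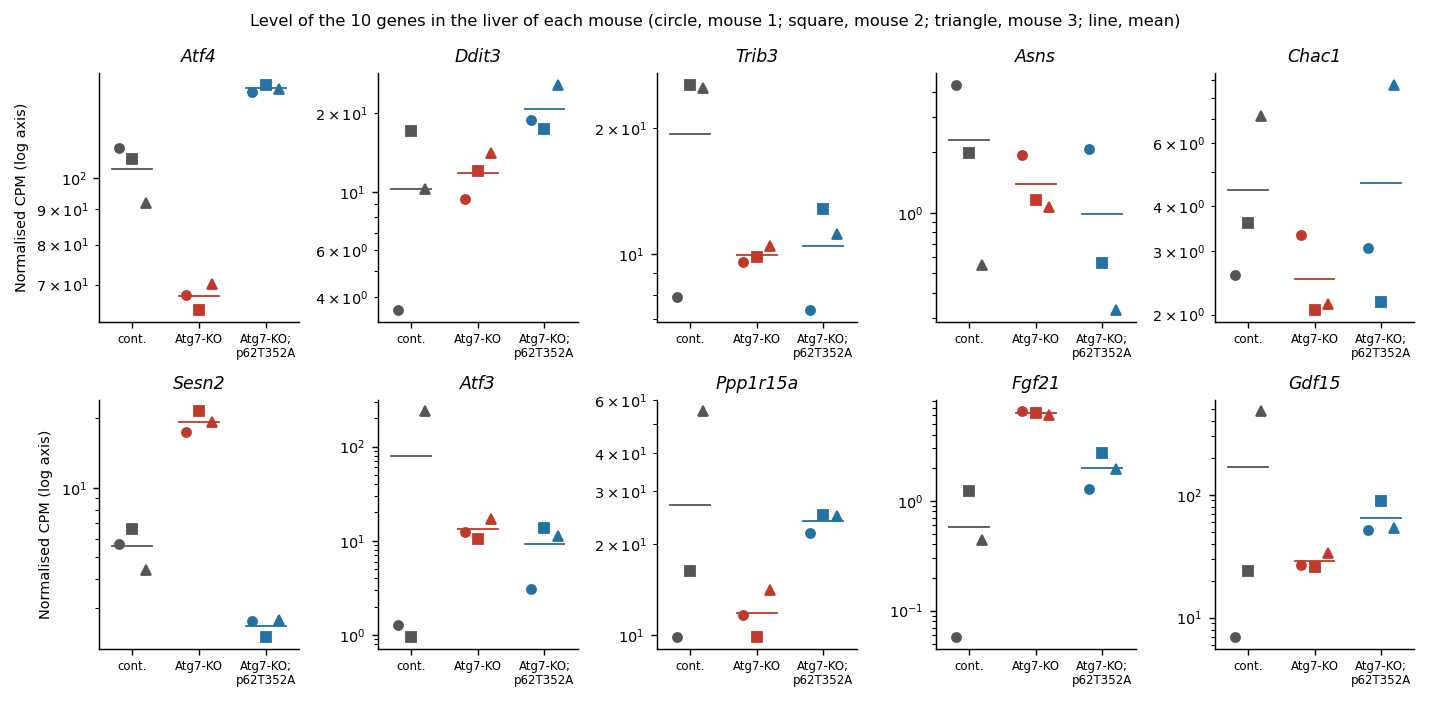
Normalised CPM of each of the 10 genes, on log axes with their own range, in 9 livers grouped by genotype. Points are mice (circle, mouse 1; square, mouse 2; triangle, mouse 3) and lines are group means; Sesn2 and Fgf21 are highest and Atf4 is lowest in the 3 Atg7-KO mice, and Atf3, Gdf15 and Ppp1r15a are highest in cont. mouse 3.

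Sesn2 encodes sestrin 2, a leucine sensor that restrains mTORC1 and limits oxidative damage. It stood at 5.67, 6.62 and 4.40 CPM in the cont. mice, 17.4, 21.5 and 19.2 in the Atg7-KO mice and 2.64, 2.24 and 2.68 in the Atg7-KO;p62T352A mice. The 3 groups did not overlap, with the Atg7-KO mice highest and the Atg7-KO;p62T352A mice below cont. Sesn2 was 3.47-fold above the cont. level in Atg7-KO mice (log2 fold change 1.80 ± 0.20 SE, adjusted p = 0.000166) and 7.66-fold lower in Atg7-KO;p62T352A than in Atg7-KO mice (log2 fold change -2.94 ± 0.21 SE, adjusted p = 2.59e-05). It was also 2.21-fold lower in Atg7-KO;p62T352A than in cont. mice (adjusted p = 0.0125), and it was the only one of the 10 called in all 3 comparisons. All 3 calls held without cont. mouse 3, with log2 fold changes of 1.65, -2.93 and -1.28. These comparisons share the Atg7-KO or the cont. mice, so a rise in one and a fall in the next are not independent. In whole liver, fewer cells of a type and less RNA per cell cannot be told apart, here and below.

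Fgf21, the fasting- and stress-induced hormone of hepatocytes, was close to the detection floor in cont. livers. Its counts there were 1, 13 and 4, or 0.0573, 1.23 and 0.440 CPM, against 6.48, 6.29 and 5.97 CPM in the Atg7-KO mice and 1.29, 2.73 and 1.96 in the Atg7-KO;p62T352A mice. The Atg7-KO mice were the highest and lay close together, and the Atg7-KO;p62T352A mice lay between them and cont., with the lowest of them just above the highest cont. mouse. Fgf21 was 11.7-fold above the cont. level in Atg7-KO mice (log2 fold change 3.55 with a 95% interval of 2.12 to 4.99, adjusted p = 0.00192), a fold that rests on 1 to 13 cont. counts and lay between 2.86 and 4.84 on the log2 scale when single mice were left out. It was 3.13-fold lower in Atg7-KO;p62T352A than in Atg7-KO mice (log2 fold change -1.64 ± 0.54 SE, adjusted p = 0.0267). That call was lost when any 1 of the 3 Atg7-KO mice, or Atg7-KO;p62T352A mouse 1 or 3, was left out, with adjusted p between 0.0642 and 0.0918, and when the test was made against a fold change of 1.5 itself (adjusted p = 0.0641). Against cont. mice, Fgf21 in Atg7-KO;p62T352A was not called (3.75-fold, log2 interval 0.42 to 3.39, adjusted p = 0.0934). It was called higher there without cont. mouse 2 (log2 fold change 3.21, adjusted p = 0.0306), against 1.91 with the 9 mice and 1.21 without cont. mouse 1.

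Gdf15, the other hormone, did not follow Fgf21. Its level was 6.93, 24.0 and 475.2 CPM in cont. mice 1, 2 and 3, 26.7, 25.6 and 33.9 in the Atg7-KO mice and 51.2, 88.5 and 53.9 in the Atg7-KO;p62T352A mice. The cont. mice spanned all other values, whereas each Atg7-KO;p62T352A mouse was above each Atg7-KO mouse. No comparison of the 9 mice called Gdf15, and its log2 fold change in Atg7-KO against cont. had a 95% interval of -5.16 to 0.06. Without cont. mouse 3 the sign turned: the log2 fold change in Atg7-KO was 0.90 ± 0.47 SE (adjusted p = 0.157), Atg7-KO;p62T352A mice were 2.25-fold above Atg7-KO mice (adjusted p = 0.0353) and 4.21-fold above the remaining 2 cont. mice (adjusted p = 0.0316). Without cont. mouse 1 instead, Gdf15 was called lower in Atg7-KO (log2 fold change -3.12, adjusted p = 0.00894), so its direction against cont. rests on which control is kept. In the Atg7-KO;p62T352A livers Fgf21 was below and Gdf15 above every Atg7-KO mouse. Values did not overlap in this comparison for 73.2% of all tested genes, and a difference between the hormones was not tested.

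Atf3, a bZIP factor induced within minutes by many stresses, was high in the same mouse as the immediate-early genes. It stood at 1.26, 0.946 and 235.4 CPM in cont. mice 1, 2 and 3, at 12.4, 10.5 and 17.2 in the Atg7-KO mice and at 3.07, 13.5 and 11.1 in the Atg7-KO;p62T352A mice. Leaving aside cont. mouse 3, all 6 mice with Cre were above both controls. With the 9 mice no comparison called Atf3, and its log2 fold change in Atg7-KO against cont. was -2.56 ± 1.55 SE (adjusted p = 0.2). Without cont. mouse 3 it was 3.56 ± 0.64 SE, an 11.8-fold difference called higher (adjusted p = 0.00302), and Atg7-KO;p62T352A mice were 8.17-fold above the 2 controls (adjusted p = 0.0212). Without cont. mouse 1 it was called lower in Atg7-KO mice (log2 fold change -3.14, adjusted p = 0.0459).

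Ppp1r15a encodes GADD34, the inducible phosphatase subunit that removes the phosphate from eIF2 and ends the response. It stood at 9.86, 16.3 and 55.1 CPM in the cont. mice, 11.6, 9.82 and 14.04 in the Atg7-KO mice and 21.9, 25.0 and 24.8 in the Atg7-KO;p62T352A mice. The Atg7-KO;p62T352A mice were above all Atg7-KO mice and the 2 lower controls. The 2.02-fold difference between the Cre genotypes did not pass the test with 9 mice (log2 fold change 1.01 ± 0.51 SE, adjusted p = 0.12). Without cont. mouse 3, which is in neither group of this comparison, the difference was 2.03-fold and was called (adjusted p = 0.00443). The same holds without cont. mouse 1 (adjusted p = 0.0278). Against cont., Ppp1r15a in Atg7-KO mice was not called with 9 mice (log2 fold change -1.18, adjusted p = 0.0856), was called lower without cont. mouse 1 (-1.59, adjusted p = 0.00561) and was -0.14 without cont. mouse 3.

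Atf4, the factor itself, stood at 110.5, 106.6 and 92.1 CPM in the cont. mice, 67.5, 64.2 and 70.2 in the Atg7-KO mice and 133.5, 136.7 and 134.5 in the Atg7-KO;p62T352A mice. The 3 groups did not overlap, with the Atg7-KO mice lowest and the Atg7-KO;p62T352A mice highest, an order opposite to that of Sesn2. Atf4 was 1.53-fold below the cont. level in Atg7-KO mice (log2 fold change -0.61 ± 0.15 SE, adjusted p = 0.00815), a size just past the threshold of 1.5. Its fold change, not its adjusted p, fell short without cont. mouse 1 or Atg7-KO mouse 2, with log2 fold changes of -0.56 and -0.58, and with upper-quartile normalization (-0.50, adjusted p = 0.0243). When the test was made against a fold change of 1.5 itself, the adjusted p was 0.392. It was 2-fold higher in Atg7-KO;p62T352A than in Atg7-KO mice (log2 fold change 1.00 ± 0.15 SE, adjusted p = 0.000557), and every mouse left out kept this call. Against cont. the 1.31-fold difference in Atg7-KO;p62T352A was not called (adjusted p = 0.121).

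Ddit3 encodes CHOP, the bZIP factor that couples long stress to cell death. It stood at 3.55, 17.1 and 10.2 CPM in the cont. mice, 9.38, 12.0 and 14.04 in the Atg7-KO mice and 18.8, 17.4 and 25.6 in the Atg7-KO;p62T352A mice. All 3 Atg7-KO;p62T352A mice lay above all others, yet the 1.74-fold difference from Atg7-KO (log2 interval -0.19 to 1.79, adjusted p = 0.15) and the 2.02-fold difference from cont. (adjusted p = 0.174) were not called. Without cont. mouse 1, in which Ddit3 was lowest, the difference from Atg7-KO was called (adjusted p = 0.0113). In Atg7-KO against cont. the log2 fold change was 0.21 with an interval of -0.79 to 1.21, and it was 0.21 without cont. mouse 3. Exons of Ddit3 are overlapped on the opposite strand by Mars, and the strand setting of the counting is not given in the sources used here, so some Ddit3 counts may belong to Mars. The exons of Ppp1r15a are overlapped in the same way by Tulp2. Without cont. mouse 3, Mars was 1.73-fold higher in Atg7-KO;p62T352A than in Atg7-KO mice (adjusted p = 0.00794), beside 1.75-fold for Ddit3. In Atg7-KO against cont. mice that fit gave Mars a log2 fold change of -0.66, beside 0.21 for Ddit3. The part of Mars reads in the Ddit3 counts was not tested.

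Trib3, a pseudokinase that holds back ATF4 and CHOP, stood at 7.91, 25.3 and 24.8 CPM in the cont. mice, 9.58, 9.86 and 10.5 in the Atg7-KO mice and 7.36, 12.8 and 11.2 in the Atg7-KO;p62T352A mice. The 6 mice with Cre lay together, and cont. mice 2 and 3 lay above them while cont. mouse 1 did not. The 1.93-fold lower level in Atg7-KO mice missed the threshold (log2 fold change -0.95 ± 0.39 SE, adjusted p = 0.0708), and the log2 fold change was -0.73 without cont. mouse 3. With the mice numbered 1 left out of all genotypes, Trib3 was called lower in both Cre genotypes against cont. (log2 fold changes -1.30 and -1.06, adjusted p = 0.000342 and 0.00701).

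Asns, asparagine synthetase, and Chac1, an enzyme that breaks down glutathione, were called in no comparison. Asns had 5 to 76 counts per mouse, and its level was 4.36, 1.99 and 0.550 CPM in the cont. mice, 1.93, 1.15 and 1.07 in the Atg7-KO mice and 2.07, 0.560 and 0.326 in the Atg7-KO;p62T352A mice. Mouse 1 was highest in each genotype. Chac1 stood at 2.58, 3.59 and 7.14 CPM in the cont. mice, 3.34, 2.06 and 2.13 in the Atg7-KO mice and 3.07, 2.17 and 8.75 in the Atg7-KO;p62T352A mice, so the groups overlapped. The log2 fold changes in Atg7-KO against cont. were -0.79 for Asns (interval -2.39 to 0.80) and -0.80 for Chac1 (interval -2.03 to 0.43), which leaves both a fall and a modest rise possible at this depth and spread, and they were -1.23 and -0.30 without cont. mouse 3.

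When p62T352A was added to the loss of Atg7 (Atg7-KO;p62T352A against Atg7-KO), 1 of the 10 genes was called higher (Atf4) and 2 lower (Sesn2 and Fgf21), while 51.0% of all tested genes were called, 24.7% higher and 26.2% lower. Groups did not overlap for 6 of the 10, against 73.2% of all tested genes. Their log2 fold changes ran from -2.94 for Sesn2 to 1.17 for Gdf15, with a median of 0.43 (all tested genes, 0.00), and of 0.44 without cont. mouse 3. Without cont. mouse 3, Gdf15 and Ppp1r15a were also called, which gave 5 of the 10 called, beside 52.6% of all genes. Leaving out cont. mouse 1 instead added Ddit3 and Ppp1r15a, also 5 of the 10, beside 57.3% of all genes. Between Atg7-KO;p62T352A and cont. mice, 1 of the 10 was called (Sesn2, lower), while 11.6% of all genes were called, 6.25% higher and 5.34% lower. Values did not overlap for 4 of the 10, against 26.6% of all tested genes. Without cont. mouse 3, Gdf15 and Atf3 were called in addition, both higher, which gave 3 of the 10 beside 11.4% of all genes, and the median log2 fold change of the 10 turned from -0.53 to 0.74.

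**Figure D3:**
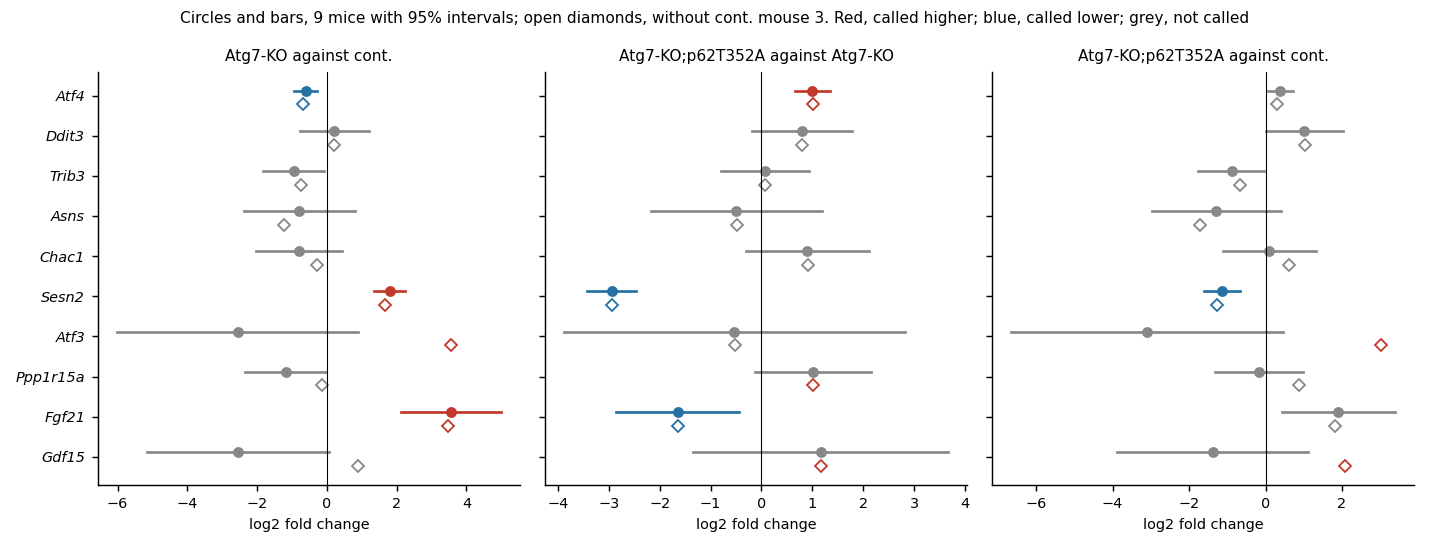
Log2 fold change of the 10 genes in the 3 comparisons, with circles and bars for the fit of 9 mice and its 95% interval and open diamonds for the fit without cont. mouse 3. Red marks a gene called higher, blue lower and grey not called; the diamonds of Atf3 and Gdf15 lie on the other side of 0 from their circles in both comparisons with cont., and those of Sesn2, Fgf21 and Atf4 stay beside their circles.

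Levels per kilobase of exon allow the genes to be ranked within a genotype. In the Atg7-KO mice Atf4 led with a mean of 28.5 CPM per kilobase (27.2 to 29.8), followed by Gdf15 at 15.5 (13.8 to 18.3). Ddit3 (6.9), Fgf21 (6.57), Atf3 (6.2) and Sesn2 (5.57) came next, and their ranges over the mice overlapped from each to the next. Trib3 and Ppp1r15a, at 4.69 and 4.02, overlapped as well. Chac1 at 1.53 and Asns at 0.506 were last. In the cont. mice Fgf21 was at a mean of 0.604 (0.0603 to 1.29) and could not be told from Asns at 0.839 (0.201 to 1.59), whereas Gdf15 ran from 3.74 to 257. In the Atg7-KO;p62T352A mice Atf4 led at 57.2 and Gdf15 followed at 34.8 (27.6 to 47.8), and Sesn2, at 0.725, lay in the range of Asns.

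Above ATF4 stand the eIF2 kinases, the eIF2 subunits and the exchange factor eIF2B, counted here with the phosphatase subunit Ppp1r15b and the GCN2 regulators Impact and Gcn1l1. Of these 15 genes, 0 were called higher in Atg7-KO against cont. mice by edgeR or DESeq2 (4 had an unadjusted p under 0.05 in edgeR) and 1, or 6.67%, was called lower by edgeR, the GCN2 coactivator Gcn1l1 (adjusted p = 0.0093), beside 21.6% and 22.1% of all genes, while 2 were called higher and 2 lower without cont. mouse 1, and 1 higher and 2 lower without cont. mouse 3. The kinase genes Eif2ak3 (PERK), Eif2ak4 (GCN2), Eif2ak1 (HRI) and Eif2ak2 (PKR) had log2 fold changes of 0.19, -0.11, -0.30 and 0.43 and were not called. With p62T352A added, 4 were higher and 2 lower than in Atg7-KO mice (2 and 1 without Atg7-KO mouse 1), which are 26.7% and 13.3% of the 15 beside 24.7% and 26.2% of all genes. Eif2s2, the beta subunit of eIF2, was the largest change, at 101, 95.6 and 97.7 CPM in the Atg7-KO mice and 371.4, 301.7 and 375.8 in the Atg7-KO;p62T352A mice (log2 fold change 1.83, adjusted p = 7.9e-05), and it was also higher than in cont. (log2 fold change 1.28, adjusted p = 0.00573). Phosphorylation of eIF2 is not measured by these data.

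Among the 9 bZIP partners, Cebpd was called higher and Atf5 and Cebpb lower in Atg7-KO mice (11.1% and 22.2% of the 9, beside 21.6% and 22.1% of all genes), while Fos and Jun, which peaked in cont. mouse 3, were not called. Jun was called higher without that mouse (log2 fold change 2.31, adjusted p = 0.0018), and without cont. mouse 1 both were called lower (Jun -2.82, adjusted p = 0.0385; Fos -4.92, adjusted p = 0.0149), as was Nfe2l2, which encodes NRF2 (-0.97, adjusted p = 0.016; -0.60, adjusted p = 0.283 with the 9 mice). Cebpb, the partner induced in acute-phase responses, stood at 151.6, 284 and 466.5 CPM in the cont. mice, 127.2, 111.2 and 125.9 in the Atg7-KO mice and 468.6, 348.2 and 471.8 in the Atg7-KO;p62T352A mice (log2 fold changes -1.31 and 1.82 in the first and the second comparison, adjusted p = 0.0129 and 0.00227). Atf5, a relative of ATF4 that also marks mitochondrial stress, had log2 fold changes of -1.00 and 1.18 (adjusted p = 0.0213 and 0.00859). In Atg7-KO against cont. mice, the call of Atf5 was lost without any 1 of the Atg7-KO mice (adjusted p 0.0574 to 0.0792), that of Cebpb without Atg7-KO mouse 2 (adjusted p = 0.0517) and that of Cebpd without Atg7-KO mouse 1 (adjusted p = 0.0846). With the 9 mice, Atf4, Atf5 and Cebpb each had a call lower in Atg7-KO against cont. and a call higher in Atg7-KO;p62T352A against Atg7-KO mice.

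The amino acid genes known as ATF4 targets were divided. Of 19 tested, 12 rose and 4 fell in Atg7-KO against cont. mice, with a median log2 fold change of 1.19, beside 21.6% and 22.1% of all genes. Slc7a11, the cystine transporter that is also a main target of NRF2, stood at 0.630, 0.284 and 0.220 CPM in the cont. mice, 340.1, 181.6 and 218.3 in the Atg7-KO mice and 0.214, 0 and 0.392 in the Atg7-KO;p62T352A mice. Slc1a4, a neutral amino acid transporter, rose from 7.11, 5.11 and 4.07 CPM to 149, 167.8 and 179.3 (log2 fold change 4.91, adjusted p = 1.16e-05), and Mthfd1l, a mitochondrial one-carbon enzyme, had a log2 fold change of 3.37. Slc38a2, a glutamine transporter, Got1, aspartate aminotransferase, and Cth, which makes cysteine, were lower, at -1.89, -1.86 and -1.26, with Got1 at -0.99 without cont. mouse 3. With p62T352A added, 3 of the 19 were called higher and 11 lower than in Atg7-KO mice, with a median of -0.76 (Slc1a4 at -3.86, adjusted p = 2.16e-05), which are 15.8% and 57.9% of the list beside 24.7% and 26.2% of all genes. Without Atg7-KO mouse 3 these counts were 1 and 7, without Atg7-KO mouse 2 the higher count was 1, and without cont. mouse 1 it was 5. Against cont., 1 of the 19 was called in the Atg7-KO;p62T352A mice, Slc1a4, at 2.07-fold higher. This call was lost without cont. mouse 3 (adjusted p = 0.0606) and without cont. mouse 2, any 1 Atg7-KO mouse or Atg7-KO;p62T352A mouse 1 or 3 (0.0564 to 0.115). Without cont. mouse 1 it was kept, and Slc7a5 and Slc38a2 were called lower (log2 fold changes -1.18 and -0.97, adjusted p = 0.011 and 0.0355). Asns was thus not called in a liver in which other amino acid genes moved by over 1.5-fold, and Sesn2 and Fgf21 shared the direction of the 12 that rose.

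**Figure D4:**
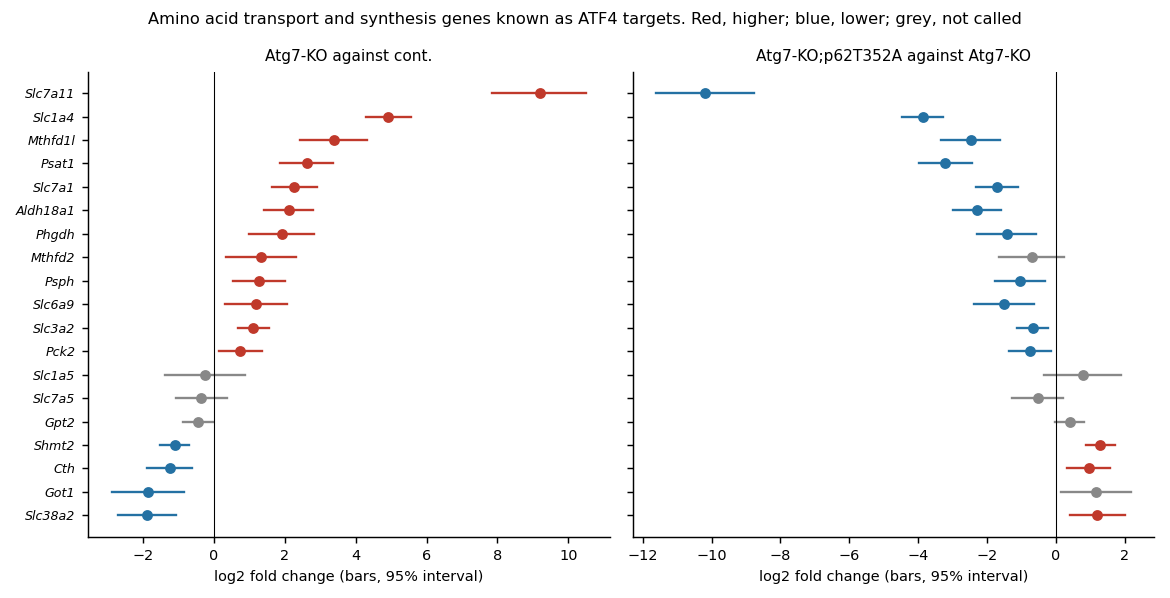
Log2 fold change, with 95% interval, of the 19 tested amino acid genes known as ATF4 targets, in Atg7-KO against cont. (left) and Atg7-KO;p62T352A against Atg7-KO (right). Red marks genes called higher, blue lower and grey not called; 12 are red and 4 blue on the left, and 3 red and 11 blue on the right.

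Other ATF4 and CHOP targets were divided too, with 7 of 16 that rose and 3 that fell in Atg7-KO mice (median 0.67), or 43.8% and 18.8% of them, beside 21.6% and 22.1% of all genes. Tnfrsf10b, a death receptor known to rise with CHOP and p53, had a log2 fold change of 4.52, and Fam129a and Ndrg1 had 2.69 and 2.57. Vldlr, a lipoprotein receptor, Vegfa, the angiogenic factor, and Herpud1, of ER-associated degradation, were lower at -3.62, -2.69 and -1.54, with Vldlr at -2.87 without cont. mouse 3. With p62T352A added, 2 of the 16 were called higher and 6 lower than in Atg7-KO mice (12.5% and 37.5%, beside 24.7% and 26.2% of all genes), with a median of -0.28. Of the 13 tRNA synthetase and tRNA export genes, 1 was called higher (Gars, 1.40) and 3 lower (Cars, Aars and Eprs, at -0.94, -0.76 and -0.69). These are 7.69% and 23.1% of the 13, beside 21.6% and 22.1% of all genes, and 5 were called lower without cont. mouse 3 and 2 higher without cont. mouse 1. Against Atg7-KO mice, 5 of the 13 were higher and 2 lower in Atg7-KO;p62T352A mice (38.5% and 15.4%, beside 24.7% and 26.2% of all genes), with Gars at -1.37 and Cars, Aars and Eprs between 1.26 and 1.53.

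The neighbouring stress arms were counted beside the 10 genes. Of 24 ER chaperone and ER degradation genes, 6 fell in Atg7-KO against cont. mice and 0 rose by edgeR, by DESeq2 or at an unadjusted p under 0.05, with Derl3 (-2.10), Syvn1 (-1.46) and Sdf2l1 (-1.35) at the low end. The 6 are 25% of the list, close to the 22.1% of all genes that were called lower. The call of Sdf2l1 was lost without any 1 mouse other than cont. mouse 3 (adjusted p 0.0534 to 0.162). The count of the list was 12 lower without cont. mouse 3, and 4 lower with 4 higher without cont. mouse 1. Of the 24, 7 (29.2%) were higher and 2 (8.33%) lower in Atg7-KO;p62T352A against Atg7-KO mice, beside 24.7% and 26.2% of all genes, the 2 being Ern1 (IRE1, -3.77, adjusted p = 0.000145) and Dnajb9 (-2.11, adjusted p = 0.00904). Without cont. mouse 1 these counts were 11 and 4, and the lower count was 4 without cont. mouse 3. Of 11 mitochondrial protease and chaperone genes, 1 (9.09%, beside 43.7% of all genes) was called in Atg7-KO mice, Clpp, lower at -0.60. Its call was lost without cont. mouse 3 (-0.55, short of the fold) or Atg7-KO mouse 1 (adjusted p = 0.0555). Hspd1 was called higher without cont. mouse 1 (0.67, adjusted p = 0.00739). With the mice numbered 1 left out of all genotypes, Hspd1 was higher and Afg3l2 lower in addition (0.72 and -0.72, adjusted p = 0.0172 and 0.00465), beside 54.4% of all genes called.

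Sesn2 and Fgf21 were also read beside lists of known p53 and PPARalpha targets, and no list of NRF2 targets was read. Of 12 p53 targets, 7 (58.3%) rose in Atg7-KO against cont. mice, beside 21.6% of all genes, and 0 fell by edgeR, by DESeq2 or at an unadjusted p under 0.05, beside 22.1%. With the mice numbered 1 left out of all genotypes, Sesn1 was called lower there (-0.61, adjusted p = 0.0132). The 7 were led by Phlda3, Eda2r and Gtse1 (log2 fold changes 4.85, 3.84 and 2.16, the last 3.07 without cont. mouse 2), and 7 were called lower in Atg7-KO;p62T352A against Atg7-KO mice (4 without Atg7-KO mouse 2), beside 26.2% of all genes. Against cont., 5 of the 12 (41.7%, beside 6.25% of all genes) were called higher in Atg7-KO;p62T352A mice, where Sesn2 was called lower. The 5 were Eda2r, Phlda3, Cdkn1a, Bax and Zmat3 (log2 fold changes 2.27, 2.18, 2.08, 1.07 and 0.98), and Sesn1 was called lower (-1.03). Leaving out 1 mouse gave 1 to 6 higher, with the fewest without Atg7-KO;p62T352A mouse 3, and 0 lower without Atg7-KO;p62T352A mouse 1 or 3. Phlda3 stood at 0.688, 0.189 and 0.659 CPM in the cont. mice, 12.1, 17.8 and 16.1 in the Atg7-KO mice and 1.79, 2.80 and 2.68 in the Atg7-KO;p62T352A mice. Of 14 PPARalpha targets, 2 (14.3%) were higher and 8 (57.1%) lower in Atg7-KO mice, beside 21.6% and 22.1% of all genes, with Cyp4a14, Cyp4a10 and Cpt1b at -5.00, -3.54 and -2.00 (the first 2 at -3.78 and -2.79 without cont. mouse 2, and 5 genes higher without cont. mouse 1), so Fgf21 was higher in livers in which most of these genes were lower. Of the same 14 genes, which do not include Fgf21, 6 (42.9%) were higher and 3 (21.4%) lower in Atg7-KO;p62T352A against Atg7-KO mice, beside 24.7% and 26.2% of all genes. Which of these factors bears on Sesn2 or Fgf21 was not tested.

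Of 7 receptor and co-receptor genes of the hormones, 5 had enough reads to be tested. Gfral, the GDF15 receptor of the hindbrain, was at 0 in all 9 mice, and its co-receptor Ret was at 0 in the cont. and Atg7-KO;p62T352A mice and at 0.041 to 0.128 CPM in the Atg7-KO mice. Klb, the co-receptor of FGF21, stood at 29.8, 16.8 and 18.02 CPM in cont., 9.53, 15.0 and 14.7 in Atg7-KO and 7.21, 10.4 and 11.9 in Atg7-KO;p62T352A mice, and was called lower in the last against cont. (log2 fold change -1.14, adjusted p = 0.0355), a call lost without any 1 of the 6 mice with Cre (adjusted p 0.052 to 0.105). Fgfr1 was called higher in Atg7-KO mice (1.14, adjusted p = 0.00977) and Fgfr4, the main FGF receptor of hepatocytes, lower (-0.96, adjusted p = 0.00353). Each is 20% of the 5 tested genes, close to the 21.6% of all genes called higher and the 22.1% called lower.

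Markers of cell types moved with the same comparisons. Of 7 hepatocyte markers, all 7 were called lower in Atg7-KO mice, where their summed level was 39050 to 41540 CPM against 78800 to 131900 in cont. mice and 116500 to 136500 in Atg7-KO;p62T352A mice, with most reads from Alb. All-gene shares in this comparison were 21.6% higher and 22.1% lower. Of 10 macrophage markers, 8 (80%) were higher, and their sum was 1168 to 1247 CPM in Atg7-KO, 292.8 to 427.8 in cont. and 201.1 to 408.2 in Atg7-KO;p62T352A mice. Of 8 cholangiocyte markers, 6 (75%) were higher, with sums of 859.4 to 1053 in Atg7-KO, 67.0 to 70.4 in cont. and 205.6 to 290.3 in Atg7-KO;p62T352A mice. Spp1 made up most of this sum in the Atg7-KO mice (771.4 to 966.9 CPM), while Cftr was at 0 in cont. mice 2 and 3 and Cldn4 in cont. mouse 3. Of 8 stellate cell markers, 7 (87.5%) were higher, with sums of 969.7 to 1162 in Atg7-KO, 255.1 to 313.5 in cont. and 381.3 to 665.2 in Atg7-KO;p62T352A mice. The high Sesn2 and Fgf21 and the low Atf4 of the Atg7-KO mice were thus measured in livers with another mix of RNA, and the part of that mix in these values was not tested.

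**Figure D5:**
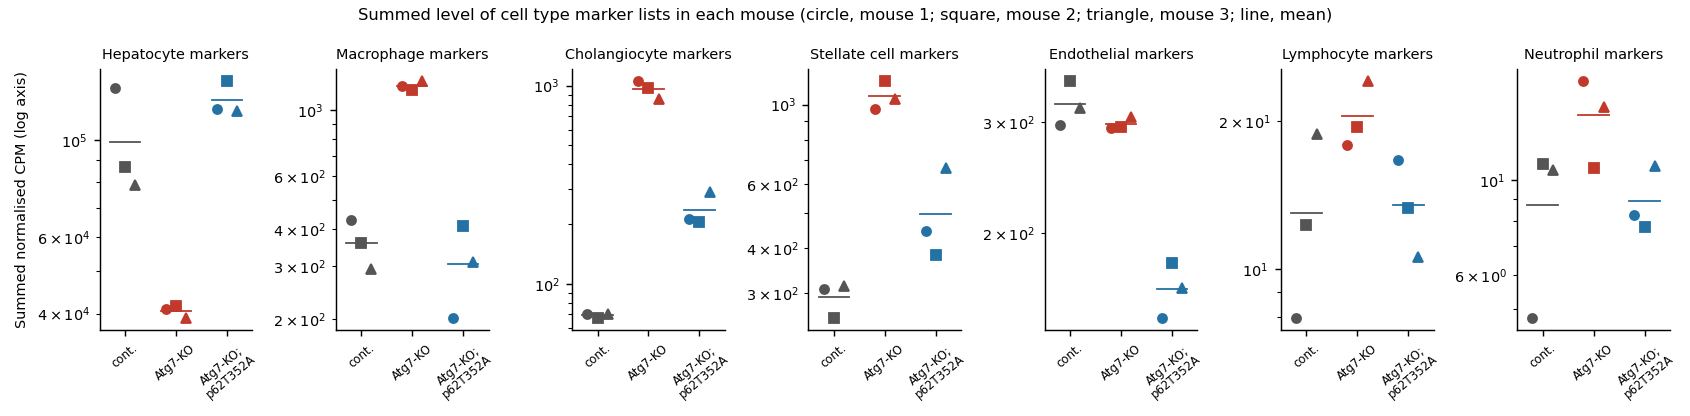
Summed normalised CPM of marker lists for 7 liver cell types, on log axes, in 9 livers grouped by genotype. Points are mice (circle, mouse 1; square, mouse 2; triangle, mouse 3) and lines are group means; the Atg7-KO mice are lowest for hepatocyte markers (39050 to 41540) and highest for macrophage, cholangiocyte and stellate cell markers.

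Genes whose levels ran most like those of the hormones and of CHOP were taken by Pearson correlation of log2 CPM over the 9 mice, which share genotypes, so that the values are descriptions only. Nearest to Fgf21 were Mapk8ip1 (r = 0.985), Grhl1 (0.984) and Fhl3 (0.978). Nearest to Gdf15 were Sp3os (0.958), Fosb (0.944) and Ppp1r15a (0.929), of which Fosb and Ppp1r15a are highest in cont. mouse 3 as Gdf15 is. Nearest to Ddit3 were Pou2f2 (0.976), Oas1b (0.971) and Traf1 (0.965). By Spearman correlation none of these 9 genes was again among the nearest 3.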

How the data were processed

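Per the labels and the study's methods, poly(A) RNA of mouse liver was read by the authors in single-end runs of 75 bases. The deposited values are expected counts, given per gene and mouse, from RSEM, which the authors made after trimming with Trim Galore and mapping to mm10 with STAR, without scaling for depth. Tool versions, gene annotation and strand setting are not given in the sources used here. The labels name an RNeasy kit for the RNA and the study's methods name TRIzol. Labels exist for 3 p62T352A mice whose libraries were not analysed here.

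Expected counts were rounded to whole numbers and assigned to mice by genotype and mouse number in the labels. Genes were filtered with filterByExpr, libraries were scaled by TMM, and the 3 genotypes were fitted together with glmQLFit and glmQLFTest of edgeR 4.0.16 in R 4.3.3, with Benjamini-Hochberg adjustment over all 13922 tested genes. Intervals are 95% intervals of that model. Each p-value sets a difference between genotypes against a spread estimated from all mice in the fit. Neither the mouse number nor the pattern of cont. mouse 3 was modelled in the main fit. The fit was tested on simulated data. With 3 mice a genotype, a gene that is not called is not shown to be unchanged. DESeq2 1.42.0 and the alternatives described in the closing section were run on the same counts. Levels per kilobase used exon lengths of GENCODE vM21 (GRCm38, as mm10). No stretch of 75 bases of the 10 genes' transcripts was found in transcripts of a gene of another name. Promoter windows come from RefSeq (GRCm38.p6). Figures were drawn with Python 3.11.15 and matplotlib 3.10.9.

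The 10 genes and all gene lists were chosen with earlier results of these data known. From each list the 3 largest and the 3 smallest log2 fold changes in Atg7-KO against cont. mice were open to naming, among genes with a mean of at least 1 CPM. All eIF2, bZIP and receptor genes, the most abundant marker of each cell type and any marker at 0 were open to naming as well. Egr1, Ern1, Dnajb9, Cdkn1a, Bax, Zmat3, Slc7a5 and Mars fell outside this rule and were chosen after their values were seen.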

Additional observations from a re-analysis of the deposited data

How the results depend on the processing

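Calls that held throughout were Sesn2 (both comparisons that involve the Atg7-KO mice), Fgf21 (Atg7-KO against cont.) and Atf4 (Atg7-KO;p62T352A against Atg7-KO). They kept their direction and passed the threshold under all alternatives run. These were DESeq2, DESeq2 size factors in edgeR, upper-quartile normalization, removal of the 20 most abundant genes, no filter on low counts, a mean of at least 10 counts, the FDR alone, glmTreat against a fold change of 1.5, the replicate block, the mice numbered 2 and 3 only, and each mouse left out in turn. Without the mice left out, 282 of 300 values for the 10 genes kept their side of the threshold and their direction, 5 were weaker, 8 passed the threshold newly and 5 reversed; the cause was not tested. In Atg7-KO against cont. mice, 5 of the 10 genes were called by DESeq2 (Trib3 and Ppp1r15a in addition) and 5 in the mice numbered 2 and 3 only (Trib3, Gdf15 and Ppp1r15a in, Atf4 out), against 3, while 6410 of 13922 and 7649 of 14060 of all genes were called there. There, Ddit3 reversed to -0.077 in the mice numbered 2 and 3. Between Atg7-KO;p62T352A and cont. mice, 2 were called by DESeq2 (Fgf21 in addition), 2 in the mice numbered 2 and 3 (Trib3 in addition) and 0 with glmTreat (adjusted p of Sesn2, 0.0976), against 1. Of all genes, 2231 (16%) were called there by DESeq2 and 2975 (21.2%) in the mice numbered 2 and 3, against 1613 (11.6%). Between the 2 Cre genotypes, 2 were called with glmTreat (Fgf21 out) and 4 in the mice numbered 2 and 3 (Ddit3 in addition), against 3. The 4 stood beside 7575 of 14060 of all genes (53.9%). In this comparison Trib3 reversed to -0.065 with upper-quartile normalization, which moved the median of all genes there to -0.14. Of all genes, glmTreat called 3855, 4718 and 253 in the order Atg7-KO against cont., Atg7-KO;p62T352A against Atg7-KO and Atg7-KO;p62T352A against cont., in place of 6080, 7095 and 1613, and the mice numbered 2 and 3 gave 2975 in the last.

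Leaving out 1 mouse gave 2 to 6, 2 to 5 and 1 to 3 of the 10 genes called, and 4587 to 7960, 5652 to 8142 and 435 to 3245 of all genes, in the same order. The lowest count of the last came without Atg7-KO;p62T352A mouse 3 and the highest without cont. mouse 1. Log2 fold changes that reversed in Atg7-KO against cont. mice ranged from -0.22 to 0.76 for Ddit3, -1.23 to 0.081 for Asns, -3.12 to 0.90 for Gdf15 and -3.16 to 3.56 for Atf3. Trib3 ranged from -0.10 to 0.27 in Atg7-KO;p62T352A against Atg7-KO mice. Between Atg7-KO;p62T352A and cont. mice, Chac1 ranged from -0.74 to 0.61, Gdf15 from -1.95 to 2.07, Atf3 from -3.68 to 3.03 and Ppp1r15a from -0.57 to 0.88.

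The mouse number was not taken to pair the mice, since not every same-numbered pair had a correlation of deviations over 0.1. The 6 pairs of the mice numbered 1 and 3 did (0.137 to 0.321), the 3 pairs of the mice numbered 2 did not (-0.202 to 0.0926), and 6 of 9 mice correlated best with a mouse of their own number. The mice numbered 1 share low Xist. With the replicate block, 988 of all genes were called in Atg7-KO;p62T352A against cont. mice, and Chac1 reversed to -0.0090, Gdf15 to 0.086 and Ppp1r15a to 0.12. No gene of the 10 gained or lost a call under the block. Of the list genes named with a call, Klb and Zmat3 lost their calls in Atg7-KO;p62T352A against cont. mice (adjusted p = 0.0681 and 0.0679), as did Sdf2l1 in Atg7-KO against cont. mice (adjusted p = 0.0606). Low counts limit Asns, at 5 to 76 counts per mouse, and Fgf21 in cont. mice, at 1 to 13.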

Other observations

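3 further marker lists were read in the same livers. Of 7 sinusoidal endothelial markers, 3 rose (1 without cont. mouse 2) and 1 fell in Atg7-KO against cont. mice (42.9% and 14.3%, beside 21.6% and 22.1% of all genes), and 5 (71.4%, beside 5.34% of all genes) were called lower in Atg7-KO;p62T352A against cont. mice, where their summed level was 146.7 to 179.1 CPM against 296.9 to 347.8 CPM in cont. mice, with the highest mean CPM for Stab2. Of 8 lymphocyte markers 4 were called higher in Atg7-KO mice (50%, beside 21.6% of all genes; 2 without cont. mouse 2, Atg7-KO mouse 2 or Atg7-KO mouse 3), with sums of 17.9 to 24.1 CPM against 7.97 to 18.8 in cont. mice. Of 5 tested neutrophil markers 3 (60%) were higher, with sums of 10.6 to 17.0 CPM against 4.76 to 10.9, and Mmp8 was at 0 in cont. mice 1 and 3.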
